A study of Mus musculus with 6 samples.

Results

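The comparison set adipocytes that had received AICAR against fibroblasts that had received AICAR, both made from 3T3-L1, a clonal mouse preadipocyte line. It was defined by the sample labels and holds 2 of the series' 6 arrays, 1 per side. The other 4 arrays carry the same states without a compound (the control pair) and with 0.5 mM adenine (the adenine pair). Fibroblasts grew in 10% calf serum and were exposed to 0.5 mM AICAR for 3 days. Adipocytes were induced in 10% fetal bovine serum by dexamethasone at 1 µmol/l together with insulin at 1 µg/ml and the phosphodiesterase inhibitor IBMX at 115 µg/ml. In that state 0.5 mM AICAR was present during the 3 days of induction and absent from the 3 days in insulin that followed. State, induction drugs, serum and the time since AICAR was removed therefore moved together between the 2 arrays and cannot be told apart. Expression is the deposited log2 signal of each probe set, and every difference is adipocyte minus fibroblast on that log2 scale, so that 1 is 2-fold. Of 19938 genes with a single symbol, the 9969 whose mean over the 6 arrays was at or above the median of such means (5.87) were compared. Hs3st4 (mean 5.87, difference -0.21) lay just inside that filter and Ankrd1 (mean 5.87, difference -1.52) just outside it. With 1 array per side no difference has a replicate check, and none was tested.

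Preadipocytes turn into fat cells when cAMP, glucocorticoid and insulin signals switch on the transcription factors C/EBP and PPARγ, which in turn drive genes of lipid uptake, triglyceride storage and hormone secretion. AICAR is taken up by cells and phosphorylated by adenosine kinase to ZMP, an analogue of AMP that activates the AMP-activated protein kinase (AMPK). AMPK is known to restrain lipid and protein synthesis and cell growth when energy is short, and AICAR is known to inhibit adipogenesis in cultured preadipocytes when given early.

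The array medians over all probe sets lay between 5.41 and 5.49. Adenine and control fibroblasts had a robust SD of 0.16 of their differences and 13 genes (0.13%) at least 2-fold apart. Between the states the robust SD was 0.49 for the 2 AICAR arrays, 0.37 in the control pair and 0.495 in the adenine pair. Markers of other cell types were mostly dim on both AICAR arrays. Below 5.87 on both were 11 of 14 leukocyte markers, 9 of 10 endothelial, 6 of 10 muscle, 9 of 10 epithelial and 6 of 9 bone and cartilage markers. Leukocyte markers spanned 3.47 to 6.26 in adipocytes and 3.78 to 7.44 in fibroblasts, and the pan-leukocyte gene Ptprc was at 4.32 and 4.21. The macrophage-associated genes Cd68 (5.88 in adipocytes and 7.44 in fibroblasts) and Lyz2 (5.57 in adipocytes and 7.10 in fibroblasts) were brighter in fibroblasts.

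The genes furthest apart in favour of adipocytes were those of a fat cell. Adipoq (chr16:23146536-23157968 in GRCm38.p6), the hormone adiponectin, stood at 10.79 in adipocytes and 4.05 in fibroblasts, a difference of 6.74 (107-fold). Cd36 (chr5:17781690-17888959), a fatty acid transporter, stood at 10.97 in adipocytes and 4.47 in fibroblasts (6.50, 90.7-fold), and Cidec, which enlarges lipid droplets, at 10.62 in adipocytes and 5.58 in fibroblasts (5.04, 33-fold). On the array for AICAR fibroblasts all 3 were below the filter level, so these folds depend on a background correction that is not given in the sources used here. Next came Arxes2 (4.60), a gene known as a PPARγ target in adipogenesis, the chemokine gene Cxcl13 (4.49), pyruvate carboxylase Pcx (4.44), the mitochondrial dicarboxylate carrier Slc25a10 (4.23), the droplet coat gene Plin1 (4.17), the melanocortin receptor Mc5r (4.16), glycerol phosphate dehydrogenase Gpd1 (4.09), the acute-phase gene Orm3 (4.09) and Retn (4.06), which encodes resistin. Slc25a10 and Pcx were above the filter level on both arrays, with Pcx at 10.79 in adipocytes and 6.35 in fibroblasts and Slc25a10 at 10.60 in adipocytes and 6.36 in fibroblasts. In all, 591 genes (5.93%) were at least 2-fold higher in adipocytes, 129 of them with a fibroblast level below 5.87, and 459 (4.6%) were at least 2-fold lower. Bulk RNA cannot tell a higher level per cell from a larger share of cells that had become adipocytes.

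The genes furthest apart in favour of fibroblasts were antiviral, chemokine and matrix genes. Ifit3 (chr19:34583119-34588982), an interferon-induced antiviral gene, stood at 6.60 in adipocytes and 10.93 in fibroblasts (-4.33, 20.1-fold lower), and the chemokine gene Ccl8 at 4.53 in adipocytes and 8.85 in fibroblasts (-4.31, 19.9-fold lower). For Ccl8 the adipocyte level was below 5.87, as in 67 of the 459 lower genes, so its fold and place in the order are uncertain. They were followed by Ifit2 (-3.69), the fibroblast activation protease Fap (-3.33), Mamdc2 (-3.20), the antiviral gene Rsad2 (-3.19), the collagen Col8a1 (-3.10), the annexin Anxa3 (-3.08), the phosphodiesterase Pde1b (-3.06), the activin subunit Inhba (-2.98), the neutrophil chemokine Cxcl5 (-2.98) and the VEGF receptor Flt1 (-2.88). Of these Ifit2, Fap, Mamdc2, Col8a1, Pde1b and Flt1 were also below 5.87 in adipocytes. The differences of Pde1b (5.48 in adipocytes and 8.54 in fibroblasts) and Fap (4.96 in adipocytes and 8.29 in fibroblasts) compare with -0.95 and -1.01 in the control pair. The haptoglobin gene Hp, an acute-phase protein of fat cells, was bright on both AICAR arrays, at 10.03 in adipocytes and 8.51 in fibroblasts, and its difference of 1.52 compares with 3.84 in the control pair.

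**Figure D1:**
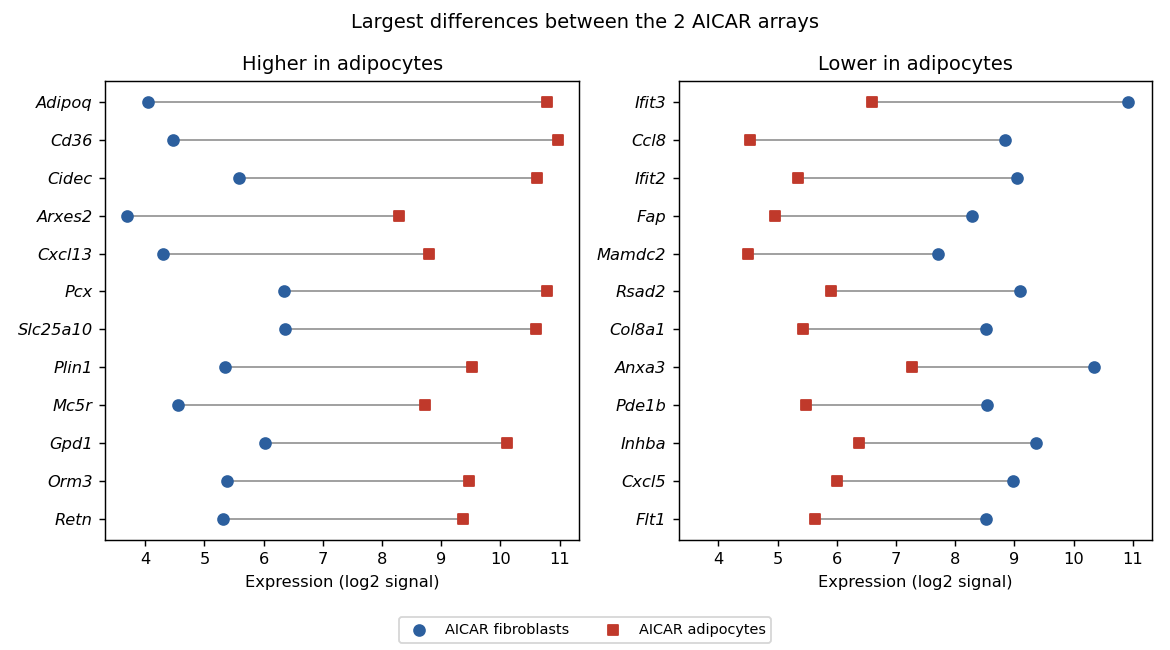
Expression (log2 signal, x axis) of the 12 genes with the largest differences each way between the AICAR arrays, with fibroblasts as blue circles and adipocytes as red squares, 1 array each. Adipoq spans 4.05 to 10.79, and of the 12 higher genes all but Pcx, Slc25a10 and Gpd1 sit below 5.87 in fibroblasts.

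Genes of lipid storage that passed the filter were mostly higher in adipocytes. The medians below compare with 0.002 over all tested genes. Counts past 2-fold in this and later lists compare with 5.93% of all genes higher and 4.6% lower. In the control pair these shares were 2.88% and 4.27%, and in the adenine pair 6.75% and 8.47%. Of 12 tested adipokines and secreted factors (of 19 on the array), 8 were at least 2-fold higher and 1 was lower, with a median of 2.05. Over all 19 on the array the median was 0.54; Adipoq, Cxcl13 and Retn were below 5.87 in AICAR fibroblasts and passed the filter through the adipocyte arrays. Angptl4, a secreted inhibitor of lipoprotein lipase, stood at 10.74 in adipocytes and 7.45 in fibroblasts (3.29), against 1.69 in the control pair, and the lipid transfer protein gene Pltp was the lowest (-1.15). Of 13 droplet and lipolysis genes 8 were at least 2-fold higher (median 1.38, or 0.74 over all 20 on the array), including the lipases Lipe (3.43) and Pnpla2 (3.37), which release fatty acids from stored fat. The droplet genes Plin2 (-0.43) and Plin3 (-0.60), found in many cell types, and the hypoxia-inducible Hilpda (-1.29) were below 0. In triglyceride assembly 7 of 12 were at least 2-fold higher (median 1.68, or 0.94 over all 15 on the array). After Gpd1 its highest members were the last-step acyltransferase Dgat2 (9.65 in adipocytes and 5.76 in fibroblasts), Agpat2 (3.29), which is mutated in lipodystrophy, and Dgat1 (2.58). The fibroblast level of Dgat2 was below 5.87, so its place in the order is uncertain.

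Uptake and synthesis of fatty acids were less uniform. Of 16 uptake and binding genes 5 were at least 2-fold higher (median 0.62). The fatty acid binding proteins Fabp5 (11.52 in adipocytes and 7.82 in fibroblasts, difference 3.70) and Fabp4 (11.21 in adipocytes and 8.62 in fibroblasts, difference 2.58) were among them, with Fabp4 at 4.43 in the control pair. A second Fabp5 probe set gave 3.74. Of 21 synthesis and desaturation genes 3 were at least 2-fold higher (Pcx, the lipogenic regulator Thrsp at 2.31 and fatty acid synthase Fasn at 1.47) and 1 was lower, the desaturase Fads1 (-1.02). Thrsp stood at 9.89 in control adipocytes, 10.31 in adenine adipocytes and 7.23 in AICAR adipocytes, beside 5.00, 4.48 and 4.91 in the fibroblasts of the same media. It was lowest among adipocytes with AICAR, and the states did not overlap. Among adipogenic transcription factors 4 of 22 were at least 2-fold higher and 2 lower (median 0.28, against 0.82 in the control pair, and -0.15 over the 8 members that passed a filter at the 75th percentile). Pparg, which encodes PPARγ, stood at 9.95 in adipocytes and 9.04 in fibroblasts, a difference of 0.91 that compares with 1.72 in the control pair. The early factors Cebpb (0.01 against 0.91) and Cebpd (-0.06 against 1.20) were also short of 2-fold with AICAR. Cebpa (7.61 in adipocytes and 5.66 in fibroblasts), the sterol receptor Nr1h3 (8.23 in adipocytes and 6.52 in fibroblasts) and Srebf1 (8.28 in adipocytes and 6.83 in fibroblasts) led, while the repressor Bhlhe40 (-2.50) and Klf9 (-1.19) were the lowest. The fibroblast level of Cebpa was below 5.87, so its place in the order is uncertain. Of brown and beige fat markers 13 of 16 were below 5.87 on both AICAR arrays, the uncoupling protein Ucp1 among them (4.57 and 4.40).

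The tested genes of mitochondrial fatty acid oxidation, the respiratory chain and the citrate cycle all stood on the adipocyte side. All 20 tested genes of fatty acid oxidation were above 0 and 11 were at least 2-fold higher (median 1.13), against 4 in the control pair (2.88% of all genes there) and 13 in the adenine pair (6.75%). The acyl-CoA dehydrogenase Acadm stood at 10.42 in adipocytes and 7.72 in fibroblasts (2.70), the carnitine transferase Cpt2 at 8.99 in adipocytes and 7.05 in fibroblasts (1.95) and the electron transfer genes Etfb at 1.62 and Etfdh at 1.55. Of the respiratory chain and citrate cycle all 29 tested genes were above 0 and 11 at least 2-fold higher (median 0.90, against 0.40 and 1.15 in the control and adenine pairs). Over all 31 on the array the median was 0.83 and the lowest difference -0.20. The oxidation list's median against the control array of the same state was -0.48 in AICAR fibroblasts and -0.002 in AICAR adipocytes. For the respiratory chain and citrate cycle list these medians were -0.33 and 0.04. Cytochrome c (Cycs) led at 11.98 in adipocytes and 10.33 in fibroblasts, a difference of 1.65, with 1.83 for another probe set and 1.70 for one that was below 5.87 on both arrays. The complex III gene Cyc1 (1.53), the citrate cycle enzyme Idh3a (1.51) and the succinate dehydrogenase subunit Sdhb (1.29) came next.

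Glycolysis and hypoxia genes leaned to the fibroblasts, with a median of -0.30. At least 2-fold lower in adipocytes were 4 of 24, and 1 was higher (4.6% and 5.93% of all genes). In the control pair 4 were at least 2-fold higher and 1 lower (4.27% of all genes were lower there). The lowest were the hormone gene adrenomedullin (Adm, -2.68), Ankrd37 (-1.50), the glucose transporter Slc2a1 (-1.36) and Pfkfb3 (-1.32), which makes the activator of phosphofructokinase. Pdk4, which keeps pyruvate out of the citrate cycle, was the highest (1.39). Insulin signalling genes had a median of 0.01, with 3 of 19 at least 2-fold higher and 2 lower (5.93% and 4.6% of all genes). They ranged from the IGF binding protein Igfbp4 (2.22) and Tbc1d4 (1.07), a substrate of Akt in glucose uptake, to Grb14 (-1.18) and Rhoq (-1.28).

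Most genes known to sense or handle AICAR lay within 2-fold between the states, as did most tested genes. Of all tested genes 5.93% were at least 2-fold higher in adipocytes and 4.6% lower. The AMPK list had a median of 0.05, with 1 of 19 at least 2-fold higher and 2 lower. The catalytic subunit Prkaa1 stood at 9.77 in adipocytes and 9.32 in fibroblasts (0.45), and Prkaa2 (-0.45) did not pass the filter. The exceptions were Sesn2 (2.08), a stress-induced inhibitor of mTORC1, and the folliculin partners Fnip1 (-1.10) and Fnip2 (-2.05). Adenosine kinase (Adk), which phosphorylates AICAR, stood at 8.35 in adipocytes and 7.52 in fibroblasts (0.83), and in the control pair at 8.52 and 8.42 (0.11). Aprt, the salvage enzyme for adenine, had a difference of -0.36, and Hprt, which salvages hypoxanthine and guanine, one of 0.62. In purine salvage and breakdown 2 of 16 genes were at least 2-fold lower. They were the AMP deaminase Ampd3 (7.70 in adipocytes and 10.21 in fibroblasts, difference -2.50) and the adenylate kinase Ak4 (-1.33, with -0.74 for its other probe set). Ampd3 stood at 8.16 in control adipocytes and 8.13 in control fibroblasts, and AICAR fibroblasts were the highest of the 6 arrays. None of 11 de novo synthesis genes passed 2-fold (median 0.38), the highest, Adsl, being just short of it (1.00). Of 29 purinergic receptor, ectonucleotidase and transporter genes 10 passed the filter, and 2 were at least 2-fold higher, the ATP-gated channel P2rx3 (2.15) and the ectonucleotidase Entpd5 (1.37). The other P2rx3 probe set was dim (4.42 and 4.40) and gave 0.02.

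Cell cycle genes were higher in the adipocytes, with a larger median than in the other pairs. Of 41 tested members 23 were at least 2-fold higher and none lower, with a median of 1.25. In the control pair 3 were at least 2-fold higher (median 0.30) and in the adenine pair 6 (median 0.58). The shares of all tested genes at least 2-fold higher were 5.93% with AICAR, 2.88% in the control pair and 6.75% in the adenine pair. Topoisomerase Top2a, which untangles chromosomes, stood at 9.39 in adipocytes and 6.93 in fibroblasts (2.47, with 3.01 for its other probe set). The CDK inhibitor Cdkn2c (2.27), cyclin A2 (Ccna2, 9.33 in adipocytes and 7.28 in fibroblasts, difference 2.05) and the ribonucleotide reductase Rrm2 (2.03) followed. At the lower end were the CDK inhibitor Cdkn1b (-0.69), Cdt1 (-0.31) and the G1 cyclins Ccnd1 (-0.08) and Ccnd2 (-0.03). Set against the control array of the same state, the list's median was -0.63 in AICAR fibroblasts and 0.21 in AICAR adipocytes. Ccna2 stood at 8.65 in control, 8.56 in adenine and 7.28 in AICAR fibroblasts and at 9.06, 9.40 and 9.33 in the corresponding adipocytes, so that the AICAR fibroblasts were the lowest of the 6 arrays. Ribosomal protein genes (median -0.08) and ribosome biogenesis genes (median 0.22) held no gene past 2-fold, and Myc had a difference of 0.02, against 1.36 in the control pair.

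As most mitotic genes stood higher, their promoters were searched for the core of the cell cycle homology region, TTTGAA, on both strands, from 250 bases before to 50 after the gene start (RefSeq, GRCm38.p6). It was found in 12 of 34 cell cycle genes with a promoter sequence (35.3%) and in 13.7% of all 8067 tested genes with one. The share was 19.2% of the genes at least 2-fold higher in adipocytes and 15.3% of those at least 2-fold lower. Chemokine ligands, which leaned lower in adipocytes, held it in 4 of 8 (50%). The windows of the mitotic genes Bub1 and Birc5 held no match. The promoters of Top2a (chr11:99024140-99024439, minus strand) and of the proliferation marker Mki67 (chr7:135716330-135716629, minus strand) are shown 5′ to 3′, with the matches in capitals. Mki67 (8.83 in adipocytes and 6.92 in fibroblasts, difference 1.91) was added after its values were seen.
Top2a: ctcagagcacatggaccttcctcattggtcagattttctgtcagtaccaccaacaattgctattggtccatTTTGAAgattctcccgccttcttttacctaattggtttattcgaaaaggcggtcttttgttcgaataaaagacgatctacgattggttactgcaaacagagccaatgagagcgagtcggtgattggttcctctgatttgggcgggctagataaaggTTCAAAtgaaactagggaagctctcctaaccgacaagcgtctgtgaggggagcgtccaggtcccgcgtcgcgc
Mki67: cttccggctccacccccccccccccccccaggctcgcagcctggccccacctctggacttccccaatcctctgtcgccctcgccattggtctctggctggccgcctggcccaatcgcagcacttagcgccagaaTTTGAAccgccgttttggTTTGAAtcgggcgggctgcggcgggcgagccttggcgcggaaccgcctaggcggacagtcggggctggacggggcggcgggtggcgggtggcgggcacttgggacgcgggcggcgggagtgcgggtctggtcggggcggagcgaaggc
The Top2a matches start at -179 and -23 from the annotated start, the latter on the opposite strand, and those of Mki67 at -116 and -98. A match is a description of the letters and does not show binding.

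Enzymes of serine and one-carbon metabolism and targets of the stress factor ATF4 also stood higher in AICAR adipocytes. Of 14 serine and folate genes 7 were at least 2-fold higher (median 1.04, or 0.81 over all 17 on the array and 2.07 over the 7 that passed a filter at the 75th percentile, against 0.27 in the control pair). They were led by cystathionine lyase Cth (9.08 in adipocytes and 5.78 in fibroblasts, difference 3.31), the mitochondrial folate enzyme Mthfd2 (10.20 in adipocytes and 7.08 in fibroblasts, difference 3.12), the serine synthesis enzyme Psat1 (10.19 in adipocytes and 7.29 in fibroblasts, difference 2.90) and Aldh1l2 (2.07). The fibroblast level of Cth was below 5.87, so its place in the order is uncertain. Mthfd1l, at -0.95, was the lowest. Of 23 ATF4 targets and amino acid transporters 9 were at least 2-fold higher and 1 lower (median 0.88). In the control pair 2 were higher and 4 lower (median -0.48). Of all tested genes 5.93% were higher and 4.6% lower with AICAR, and 2.88% and 4.27% in the control pair. The leucine transporter Slc7a5 (10.17 in adipocytes and 7.63 in fibroblasts, difference 2.54), Sesn2, the glutamine transporter Slc1a5 (1.86) and the glycine transporter Slc6a9 (1.75) were the highest and the stress gene Atf3 (-1.64) the lowest. Psat1 was at 9.74 in control, 9.59 in adenine and 7.29 in AICAR fibroblasts, and at 9.99, 10.68 and 10.19 in the adipocytes. The AICAR fibroblasts thus lay below the other 5 arrays. For the serine and folate list the median against the control of the same state was -0.93 in AICAR fibroblasts and 0.09 in AICAR adipocytes. For the ATF4 list these medians were -0.85 and 0.26. Endoplasmic reticulum chaperones had a median of 0.07 with none past 2-fold. NRF2 targets had a median of 0.04, with the pentose pathway enzyme Taldo1 (1.75) and catalase (Cat, 1.28) higher and Gstm1 (-1.15) lower.

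Cholesterol synthesis stood the other way. Of 21 genes of sterol synthesis, uptake and export 7 were at least 2-fold lower in AICAR adipocytes and none higher (median -0.68). In the control pair none was lower and 2 were higher (median 0.11). Of all tested genes 4.6% were lower with AICAR, and in the control pair 4.27% were lower and 2.88% higher. Squalene synthase Fdft1 stood at 8.89 in adipocytes and 10.58 in fibroblasts (-1.69, with -1.66 for its other probe set), the methyl oxidase Msmo1 at 9.53 in adipocytes and 11.17 in fibroblasts (-1.64), the sterol carrier Stard4 at -1.48 and the desaturase Sc5d at -1.38. The highest was mevalonate kinase Mvk (0.23). Against the controls of the same state the list's median was 1.02 in AICAR fibroblasts and -0.03 in AICAR adipocytes.

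**Figure D2:**
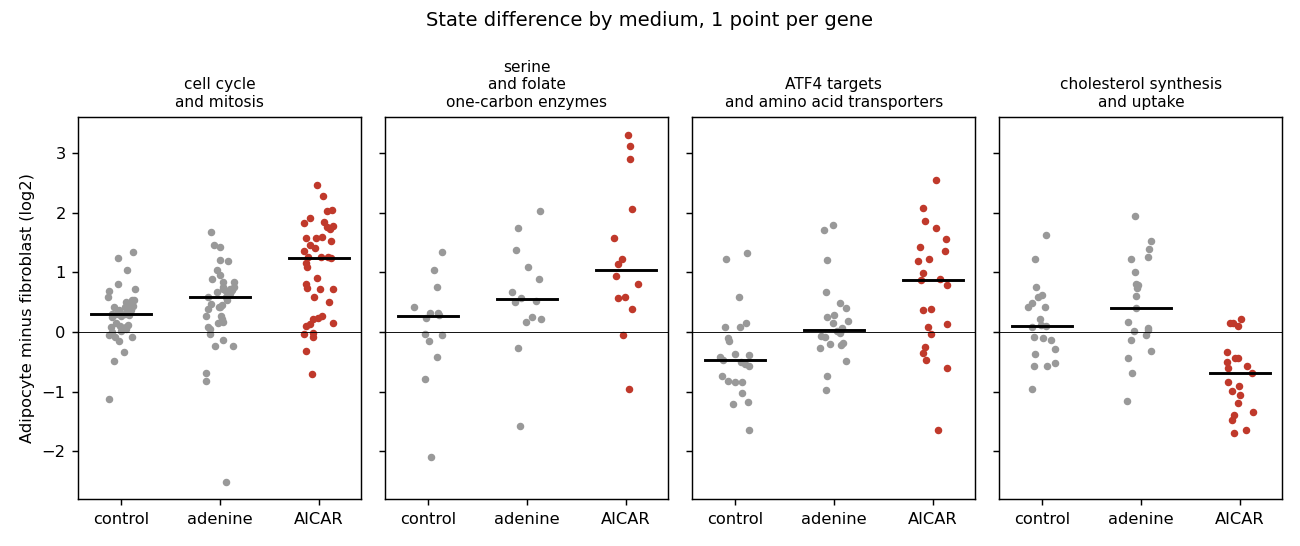
State difference (adipocyte minus fibroblast, log2, y axis) of each tested member of 4 gene lists in the control, adenine and AICAR pairs (x axis), with black bars at the medians. From the control to the AICAR pair the cell cycle median goes from 0.30 to 1.25 and the cholesterol median from 0.11 to -0.68.

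Most antiviral genes were lower in the adipocytes, with a median closer to 0 than in the control pair. Of 26 tested antiviral genes 16 were at least 2-fold lower and none higher (median -1.55), against 23 lower in the control pair (median -2.48) and 21 in the adenine pair (median -2.62, where 8.47% of all genes were at least 2-fold lower). Over all 31 on the array the median with AICAR was -1.21, and over the 13 that passed a filter at the 75th percentile it was -0.53, short of 2-fold. Single genes differed from the list: Ifit2 (-3.69 against -2.47) and Rsad2 (-3.19 against -2.81) were further apart with AICAR than in the control pair, and Ifit3 (-4.33 against -5.63) less far. After these 3 came Phf11d (-2.60), and above 0 were the kinase Eif2ak2 (0.59), Ifi27 (0.56) and Ifi27l2a (0.30). Against the controls of the same state the list's median was 1.16 in AICAR adipocytes and 0.01 in AICAR fibroblasts. Ifit3 was at 10.44, 10.34 and 10.93 in control, adenine and AICAR fibroblasts and at 4.82, 4.88 and 6.60 in the adipocytes. All 3 fibroblast arrays were above all 3 adipocyte arrays, and AICAR adipocytes were the highest of the latter. The interferon-inducible GTPases, which attack vacuoles of intracellular pathogens, had 4 of 6 at least 2-fold lower (median -1.22, against -2.82 in the control pair), with Irgm1 at -2.46 and Gbp3 at -2.02. Among sensing and signalling genes 3 of 20 were at least 2-fold lower (median -0.54, against -0.35 in the control pair), the RNA sensor Tlr3 (-1.68), Stat2 (-1.63) and Irf1 (-1.18). In the control pair 6 of the 20 were at least 2-fold lower, and in the adenine pair also 6. The other Irf1 probe set, with a mean of 5.63, gave -0.49. Of antigen processing genes 3 of 11 were lower, including the immunoproteasome subunit Psmb8 (-1.41), and 1 was higher, the class II invariant chain Cd74 (1.45).

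The promoters of these genes were searched for the core of the interferon-stimulated response element, GAAANNGAAA, on both strands in the same window. It was present in 9 of 17 tested antiviral genes with a promoter sequence (52.9%), in all 3 GTPases with one, in 7.08% of the genes at least 2-fold lower in adipocytes and in 3.55% of all. The promoters of Ifit3 (chr19:34583279-34583578, plus strand) and Rsad2 (chr12:26456403-26456702, minus strand) are printed 5′ to 3′ with the matches in capitals; these lie on the opposite strand, so the capitals show their reverse complement.
Ifit3: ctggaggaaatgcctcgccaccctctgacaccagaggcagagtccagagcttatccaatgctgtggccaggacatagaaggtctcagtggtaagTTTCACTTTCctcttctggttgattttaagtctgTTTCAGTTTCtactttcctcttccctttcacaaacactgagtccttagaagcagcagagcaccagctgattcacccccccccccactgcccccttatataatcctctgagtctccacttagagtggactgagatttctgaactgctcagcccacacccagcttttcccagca
Rsad2: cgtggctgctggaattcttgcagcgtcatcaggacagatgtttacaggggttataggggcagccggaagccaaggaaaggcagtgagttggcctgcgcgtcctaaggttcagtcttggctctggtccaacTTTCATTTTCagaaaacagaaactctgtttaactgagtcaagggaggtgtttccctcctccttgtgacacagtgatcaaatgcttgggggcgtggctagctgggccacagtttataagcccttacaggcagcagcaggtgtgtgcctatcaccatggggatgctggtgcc
The Ifit3 matches start at -156 and -122 and the Rsad2 match at -120. The Ifit3 start used by the promoter table lies inside the span of the gene record, which begins upstream of it. Neither of the annotated Ifit2 windows holds these letters. The CArG box, bound by the serum response factor, was found in 1.65% of all promoters and in 4 of 20 contractile genes, and the direct repeat 1 consensus of PPARγ in 2 of 8067 promoters, neither of them past 2-fold.

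Of the chemokine ligands that passed the filter most stood lower in adipocytes, with 7 of 13 tested members at least 2-fold lower in adipocytes and 1 higher, Cxcl13 (median -1.07). Over all 25 on the array, 12 of them below 5.87 on both AICAR arrays, the median was -0.34. After Ccl8 and Cxcl5 the monocyte attractant Ccl2 (8.03 in adipocytes and 10.05 in fibroblasts, difference -2.01) and Ccl5 (-1.25) were lowest. Acute-phase genes past the filter were split, with 7 of 11 at least 2-fold higher and the other 4 lower by as much or more. Their median was 2.07, or 0.53 over all 21 on the array, of which 8 were below 5.87 on both AICAR arrays. Orm3, at 5.39 in AICAR fibroblasts, passed the filter through the adipocyte arrays. Serum amyloid Saa3 (3.18), lipocalin Lcn2 (2.83) and Serpina3n (2.76) were high beside Orm3, and pentraxin Ptx3 (-2.04), ceruloplasmin Cp (-1.33) and the complement genes C1s1 (-1.30) and C1ra (-1.19) were low. Among inflammatory cytokine, adhesion and NF-κB genes 1 of 15 was at least 2-fold higher, the interleukin 1 receptor antagonist Il1rn (9.02 in adipocytes and 5.94 in fibroblasts, difference 3.08). The adhesion gene Vcam1 (-1.54) and Tnfaip2 (-1.39) were lower. The leukocyte markers Cd68 and Lyz2 stood higher in fibroblasts together with the antiviral and chemokine genes, while Ptprc was dim on both arrays; their part in these differences was not tested.

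Matrix genes did not share a direction. Collagens and their enzymes had 3 of 27 members at least 2-fold higher and 4 lower (median 0.13). In the adenine pair 15 were lower (median -1.06), beside 8.47% of all genes. With AICAR 5.93% of all genes were higher and 4.6% lower. The chains of collagen VI, Col6a3 (10.95 in adipocytes and 8.74 in fibroblasts, difference 2.21), Col6a2 (1.59) and Col6a1 (1.15), were the highest, and the lowest were Col8a1, Loxl3 (-1.53), P4ha2 (-1.08) and Col4a5 (-1.05). Of 24 proteoglycan and matricellular genes 4 were at least 2-fold higher and 4 lower. Versican (Vcan, 12.36 in adipocytes and 9.63 in fibroblasts, difference 2.73) and hyaluronan synthase Has2 (2.72), which build a hydrated matrix, stood opposite thrombospondin Thbs1 (-2.55), tenascin Tnc (-2.51) and periostin Postn (-1.74). Of 17 metalloproteinase and inhibitor genes 3 were higher and 6 lower, from Adamts12 (2.18) and Adam12 (2.09) to the collagenase Mmp13 (-2.29) and Mmp11 (-2.53). Contractile and YAP target genes had 2 of 20 lower, Ccn1 (-1.67) and Actn1 (-1.14), and a median of -0.47.

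Markers of preadipocytes were not uniformly lower in AICAR adipocytes. Of 16 tested 3 were at least 2-fold higher and 4 lower (median -0.02). In the control pair 6 were lower (median -0.62) and in the adenine pair 14 (median -1.97), with none higher in either. Of all tested genes 4.27% were lower in the control pair, 8.47% in the adenine pair and 4.6% with AICAR, where 5.93% were higher. Mest, an imprinted gene linked to fat expansion, stood at 6.94 in adipocytes and 4.58 in fibroblasts (2.35), the mesenchymal factor Osr1 at 10.82 in adipocytes and 9.68 in fibroblasts (1.14) and the preadipocyte factor Dlk1 at 10.11 in adipocytes and 9.05 in fibroblasts (1.06). The fibroblast level of Mest was below 5.87, so its difference is uncertain. Dlk1 was at 11.50 in control, 11.40 in adenine and 9.05 in AICAR fibroblasts, and at 10.32, 8.99 and 10.11 in the adipocytes, so that with AICAR alone the adipocytes were the higher. Fap, Ccn5 (-2.37), Pdgfrb (-1.74) and Prrx1 (-1.63) were lower. In the TGF-β and BMP pathway 5 of 19 genes were at least 2-fold lower and none higher, with the BMP antagonist Grem1 (-2.31), the transducer Smad3 (-1.45) and Ltbp1 (-1.35) next to Inhba. Wnt genes had a median of -0.02, with the receptor Fzd4 (1.74) and the secreted antagonist Sfrp2 (-2.74) past 2-fold.

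Glucocorticoid and cAMP responsive genes, of interest because the induction mix held dexamethasone and IBMX, had a median of -0.12, against 0.58 in the control pair. At least 2-fold higher were 4 of 19, glutamine synthetase Glul (10.92 in adipocytes and 7.35 in fibroblasts, difference 3.57), the receptor chaperone Fkbp5 (1.58), Tsc22d3 (1.46) and the kinase Sgk1 (1.01), and 1 was lower, Klf9. Klf9 stood at 8.40, 8.49 and 10.27 in control, adenine and AICAR fibroblasts and at 9.35, 9.45 and 9.07 in the adipocytes. The AICAR fibroblasts were the highest of the 6.

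**Figure D3:**
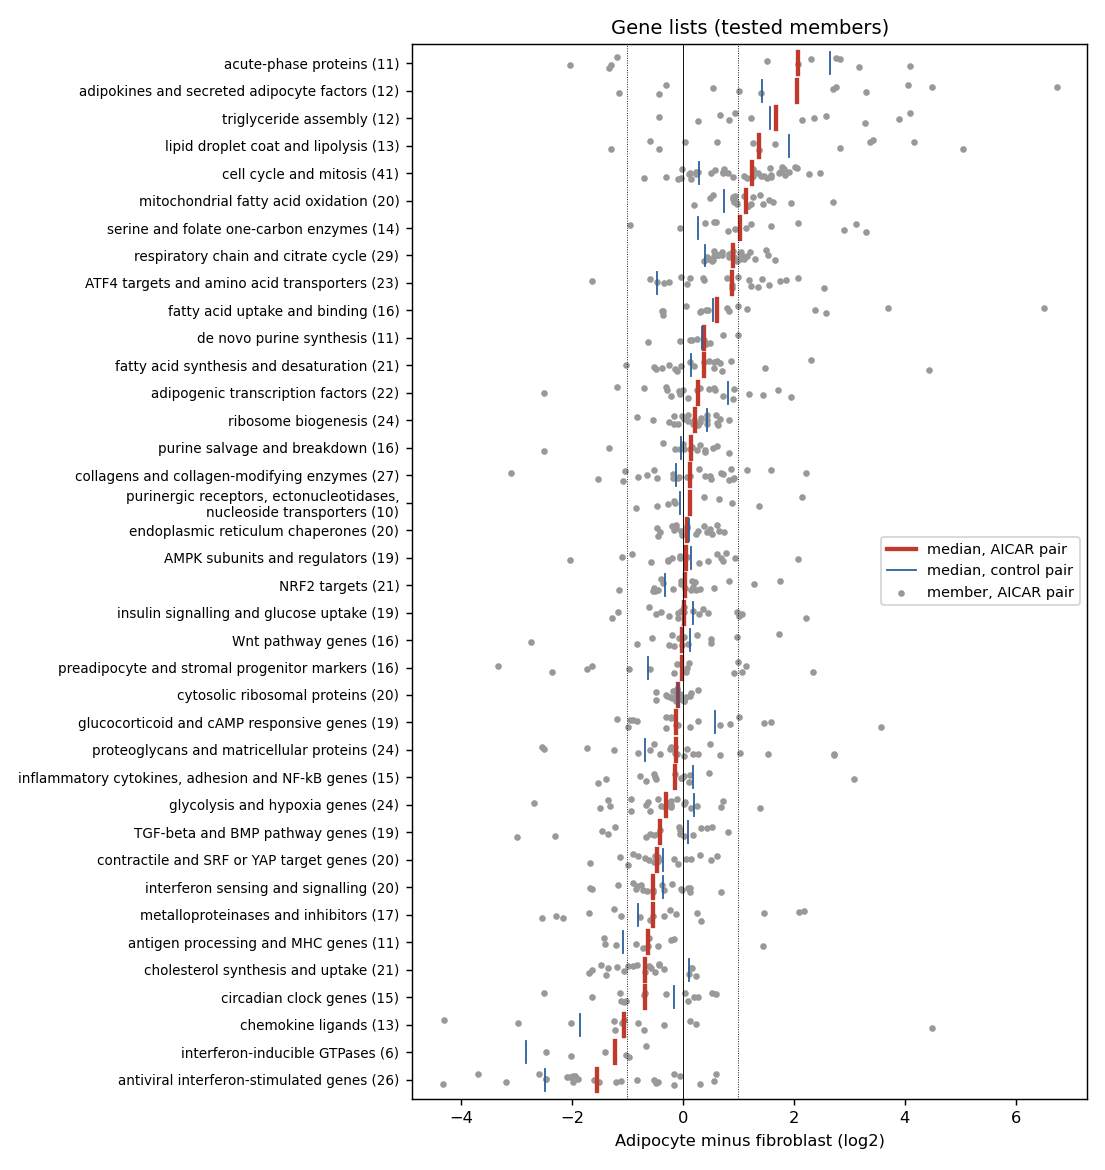
Adipocyte minus fibroblast difference (log2, x axis) of each tested member (grey points) of 38 gene lists (tested members in brackets), with the median in the AICAR pair in red and in the control pair in blue; dotted lines mark 2-fold. Among members past the filter, acute-phase genes lie at 2.07, adipokines at 2.05 and antiviral genes at -1.55; over all members on the array the medians are 0.53, 0.54 and -1.21, so the order of the lists depends on the filter.

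The AICAR pair was then set beside the control pair, which shares no array with it. Across the 9969 genes the differences of both pairs correlated with r = 0.60, and those of the adenine and control pairs with r = 0.82; genes are not independent, and the pairs come from 1 deposited table. Of the genes at least 2-fold higher with AICAR, 190 were so in the control pair, 32.1% of the former and 66.2% of the latter. Of the genes at least 2-fold lower, 187 were shared, 40.7% and 43.9%. The difference between the pairs was at least 2-fold upward for 543 genes (5.45%) and downward for 245 (2.46%). In 476 and 211 of these the AICAR and control fibroblasts lay further apart than the AICAR and control adipocytes (87.7% and 86.1%). Over all tested genes, too, AICAR minus control spread wider in fibroblasts (robust SD 0.41) than in adipocytes (0.20). The share with the larger difference in fibroblasts was not computed over all genes.

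The largest upward shifts belonged to genes that were far lower in AICAR than in control fibroblasts. Cd74 stood at 8.90 in control, 6.99 in adenine and 4.46 in AICAR fibroblasts and at 4.93, 4.62 and 5.91 in the adipocytes. Its state difference was 1.45 with AICAR and -3.97 without. Corneodesmosin (Cdsn, 2.62 against -2.77), Arhgap20 (3.88 against -0.55), Ifi27l2a (0.30 against -4.08), Aldh1l2 (2.07 against -2.10), the lipid carrier Apod (1.40 against -2.50), P2rx3 (2.15 against -1.57) and the guidance factor Sema3c (1.81 against -1.77) completed the first 8. Cd74, Arhgap20 (5.75) and P2rx3 (5.66) were below 5.87 in AICAR fibroblasts, so the size and order of their shifts are uncertain. In the other direction were Thrsp (2.31 against 4.89), Ampd3 (-2.50 against 0.03), Pfkfb3 (-1.32 against 1.19), the synaptic gene Syn2 (0.22 against 2.56), Fap (-3.33 against -1.01), Hp (1.52 against 3.84), the lysosomal trafficking gene Lyst (-2.03 against 0.27) and the MAP kinase phosphatase Dusp4 (-1.11 against 1.17). Thrsp, Pfkfb3, Syn2 and Hp were below 5.87 in control fibroblasts, and Fap in control and AICAR adipocytes, with the same limit. Thrsp was the only 1 of these 16 for which AICAR and control arrays lay further apart in adipocytes (-2.66) than in fibroblasts (-0.09). At the other extreme Plin1 had 4.17 with AICAR and 4.17 without, and Mc5r 4.16 and 4.15.

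**Figure D4:**
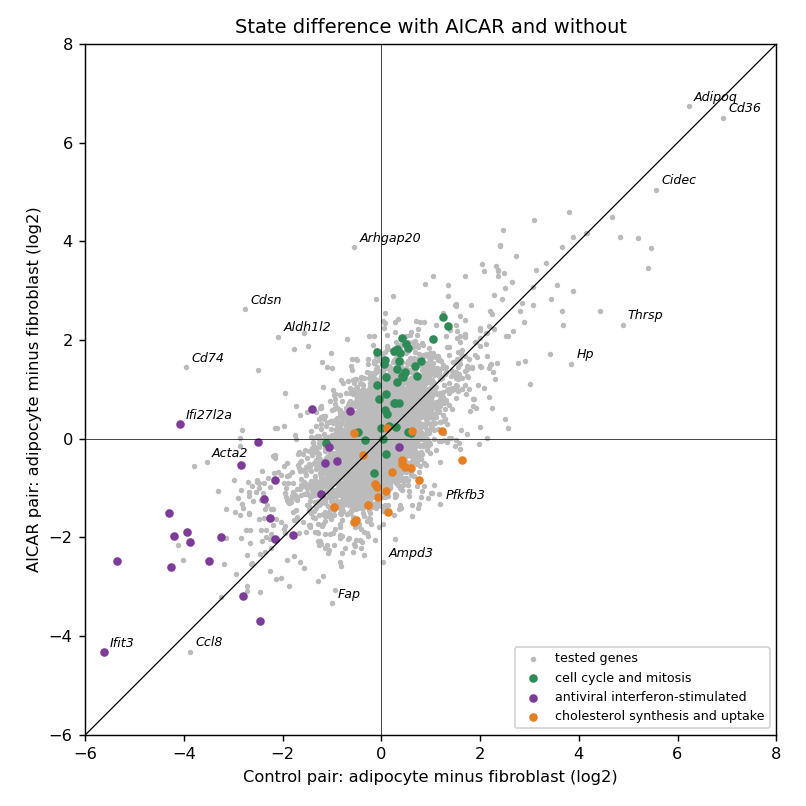
State difference (adipocyte minus fibroblast, log2) of 9969 genes in the AICAR pair (y axis) against the control pair (x axis), 1 array per condition; the line marks equal differences. Adipoq and Cd36 lie near the line at the top, while Cd74, Cdsn and Arhgap20 lie far above it and cell cycle genes (green) mostly above it.

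Some genes were at least 2-fold apart in both pairs but in opposite directions, 12 of them higher in adipocytes with AICAR and 4 lower. The first by the smaller of both sizes were Cdsn, Aldh1l2, Sema3c, P2rx3 and the extracellular superoxide dismutase Sod3 (1.88 against -1.48), and in the other direction Pfkfb3, Dusp4, the transcription factor Foxc1 (-1.10 against 1.02) and Trib1 (-1.10 against 1.00). Cdsn stood at 10.01, 8.86 and 6.39 in control, adenine and AICAR fibroblasts and at 7.24, 7.29 and 9.01 in the adipocytes. It was lowest in AICAR fibroblasts among fibroblasts and highest in AICAR adipocytes among adipocytes. No test of these differences was possible.

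**Figure D5:**
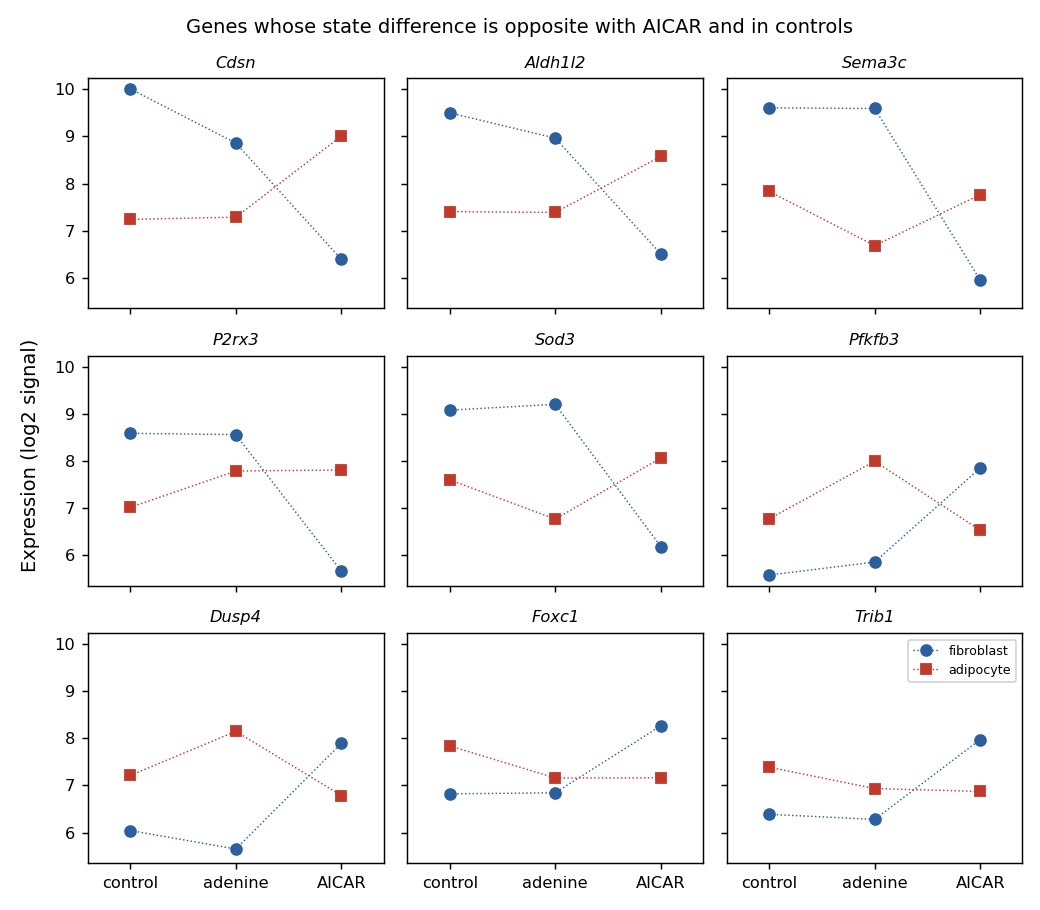
Expression (log2 signal, y axis) of 9 genes on the control, adenine and AICAR arrays (x axis) of fibroblasts (blue circles) and adipocytes (red squares), 1 array per point; dotted lines join arrays of 1 state. The order of the states is reversed with AICAR, as for Sema3c, at 5.95 in AICAR fibroblasts and 7.76 in AICAR adipocytes.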

How the data were processed

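RNA of 6 cultures was measured on gene expression arrays, 1 per condition. The deposited table holds log2 values for 35556 probe sets, made by the authors with Transcriptome Analysis Console 1.0.0.234 and build mm10, per the submitters' processing notes. How background was corrected, arrays normalized and probes summarised is not given in the sources used here. Groups came from the titles, and for the differentiated control from its treatment label. By the platform annotation 21789 probe sets carried 1 gene symbol; the 1621 with several and the 12146 without any were left out of the comparison. For 999 of the 19938 genes with more than 1 probe set, the one with the highest mean over 6 arrays was used.

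Differences were taken in Python 3.11.15 with pandas 2.3.3 and tested on simulated data. With 1 array per side no p-value was computed, and a gene was counted when at least 2-fold apart. The 45 gene lists (926 genes on the array, 711 past the filter, 4 matched through RefSeq synonyms) and the choice of arrays were made with earlier results of these data known. Genes named were the 12 largest differences each way, the 8 largest shifts each way against the control pair, up to 5 opposite each way, 4 given markers, Adk, Aprt, Hprt and AMPK catalytic subunits, and up to 4 highest and 4 lowest tested members of a list. Predicted genes, small RNAs and chemoreceptors were passed over. Exceptions, chosen after their values were seen, are Mki67, Myc, Pparg, Cebpb, Cebpd and cell type markers. Alternatives were quantile normalization, median centring, 3 other filters and the mean over probe sets.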

Additional observations from a re-analysis of the deposited data

Results flagged for a closer look

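Between the AICAR pair and the control pair 9 genes were singled out because adipocytes and fibroblasts were at least 2-fold apart in opposite directions. With 1 array per condition the difference between the pairs was not tested. Of the 9, those higher in adipocytes with AICAR were Cdsn (2.62), Aldh1l2 (2.07), Sema3c (1.81), P2rx3 (2.15) and Sod3 (1.88). Lower were Pfkfb3 (-1.32), Dusp4 (-1.11), Foxc1 (-1.10) and Trib1 (-1.10). In the adenine pair these genes stood at -1.57, -1.58, -2.91, -0.77 and -2.44, and at 2.14, 2.50, 0.31 and 0.65, each with the sign it had in the control pair. No group held enough arrays to look for a single array standing apart.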

How the results depend on the processing

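Under quantile normalization, median centring, no filter, a filter on the 2 AICAR arrays and the mean over probe sets, the counts of genes past 2-fold stayed within 1.5 times those given, from 558 to 652 higher and from 437 to 556 lower in AICAR adipocytes, and no named gene or list median called at 2-fold changed sign. A filter at the 75th percentile, which leaves 4985 genes, gave 348 higher and 187 lower, with shifts against the control pair of 294 upward and 109 downward; it left 17 of the 40 named genes past 2-fold, since the others did not pass it. Without a filter 4 lists had a median of at least 1 in size, against 11 with it, as dim members entered: cell cycle (1.25), fatty acid oxidation (1.13), antiviral genes (-1.21) and interferon-inducible GTPases (-1.23). Those lost included acute-phase genes (0.53), adipokines (0.54) and chemokines (-0.34). At the 75th percentile the antiviral median was -0.53. Cd74 did not pass the filter on the AICAR arrays. No paired analysis was possible because each condition has 1 array and the labels give no replicate numbers. The number of arrays limits the precision, and no detection calls were used, so low levels were not separated from background.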

Other observations

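Clock genes leaned to the fibroblasts with AICAR, with 6 of 15 at least 2-fold lower in adipocytes and none higher (median -0.69, against -0.16 in the control pair). Of all tested genes 4.6% were at least 2-fold lower with AICAR. After the repressor Bhlhe40 came Bhlhe41 (6.11 in adipocytes and 7.74 in fibroblasts, difference -1.63), the nuclear receptors Nr1d2 (-1.14) and Rora (-1.11), while Cry2 (0.60) was the highest. The time of day of harvest is not in the labels used here.

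Genes often taken as references were not all flat between the AICAR arrays. Actb (0.00) and Rplp0 (0.05) differed by less than 0.1, Tbp by -0.19 and Ppia by 0.29, but the transferrin receptor Tfrc stood at 8.63 in adipocytes and 6.08 in fibroblasts (2.55) and the lysosomal enzyme Gusb at 8.52 in adipocytes and 7.18 in fibroblasts (1.35). In the control pair Gusb had -0.28 and Tfrc 1.24.

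Probe sets without a gene symbol also differed. Of 3702 such probe sets with a mean at or above 5.87, in AICAR adipocytes 173 (4.67%) lay above the fibroblast level by 2-fold or more and 79 (2.13%) below it. Among the genes past 2-fold, 46 had another probe set at or above that level; 55 of these 57 probe sets had the same sign as the one used and 37 were past 2-fold as well.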
